A study of Rattus norvegicus with 43 samples.

Results

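The genes that move protons and bicarbonate across renal membranes were followed in rat kidney cortex. They were taken from the deposited tables as every protein-coding gene whose symbol begins with Atp6v0 or Atp6v1, that is the subunits of the vacuolar proton pump. Added by name were the pump's accessory subunit Atp6ap1, its a3 isoform Tcirg1, the bicarbonate and anion carriers Slc4a1, Slc4a4, Slc4a9 and Slc26a4, the transcription factor Foxi1, the ammonia channels Rhcg and Rhbg, and the carbonic anhydrases Car2, Car4 and Car12. This gave 34 members among the 32545 genes that both tables list. Of these, 32 reached 1 FPKM (fragments per kilobase of gene, scaled to library size) in at least 5 libraries of each table and were tested. The other 2, Atp6v1e2 and Atp6v1g2, did not exceed 0.329 and 0.843 FPKM in any of the 43 libraries.

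The study compared the Dahl salt-sensitive rat (SS, labelled SS WT) with SSPer1-/- rats, whose name denotes a knockout of the clock gene Per1 on that background. All were male, and all RNA came from kidney cortex and was selected for poly(A) tails before sequencing. Rats ate either a normal salt diet (0.4% NaCl) or a high salt diet (4% NaCl) for 3 weeks, and tissue was taken at 2pm, in the inactive phase, or at 2am, in the active phase. On normal salt there were 6 SS and 6 SSPer1-/- libraries at 2pm, and 6 SS and 5 SSPer1-/- libraries at 2am. On high salt each group had 5 libraries. The labels give neither the ages of the rats nor the way the allele was made. They do not say that the libraries of a group came from separate rats, so the p-values measure the spread between libraries.

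The vacuolar proton pump has a cytosolic V1 sector that hydrolyses ATP and a membrane V0 sector through which protons pass. Most subunits are made in every cell, where the pump acidifies lysosomes and endosomes. Intercalated cells of the collecting duct pack the pump into their plasma membrane and use their own isoforms of several subunits: B1 (Atp6v1b1), C2 (Atp6v1c2), G3 (Atp6v1g3), a4 (Atp6v0a4) and d2 (Atp6v0d2). Type A intercalated cells secrete acid and return bicarbonate to the blood through Slc4a1, whereas type B cells secrete bicarbonate through pendrin (Slc26a4). In the proximal tubule, filtered bicarbonate is recovered with the help of carbonic anhydrases and leaves the cell through Slc4a4.

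RefSeq promoter sequences of the GRCr8 assembly were found for 27 of the 34 members. The windows of 250 bases before to 50 bases after the start site were searched on both strands for CACGTG, the E-box that clock proteins and the MiT/TFE factors of lysosomal genes can bind, and for GTAAACA, a core of forkhead factors such as Foxi1. The E-box was present in 2 of the 27 (7.41%), Atp6v0d1 and Atp6v0e1, and in 6.42% of all 33469 promoters. In both it lay inside the longer TCACGTGA, which 0.777% of all promoters held. The forkhead core was present in 1 of the 27 (3.7%), Atp6v1b1, and in 3.78% of all promoters. Atp6v0d1 is shown because it had the smallest p of all members between the labels, and Atp6v1b1 because it is an intercalated cell isoform. The 250 bases before each start site are given 5′ to 3′ on the gene's strand, at chr19:50357249-50357498 on the minus strand for Atp6v0d1 and at chr4:117781194-117781443 on the plus strand for Atp6v1b1. Capitals mark the E-box in the first and the reverse complement of the forkhead core in the second, beginning 52 and 93 bases before the start site. A match is a string of letters and not a measured binding site.
Atp6v0d1: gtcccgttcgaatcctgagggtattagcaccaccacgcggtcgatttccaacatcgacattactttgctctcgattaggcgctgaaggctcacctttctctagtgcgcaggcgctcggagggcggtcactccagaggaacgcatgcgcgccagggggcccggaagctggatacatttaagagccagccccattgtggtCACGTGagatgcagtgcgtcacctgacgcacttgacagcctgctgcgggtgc
Atp6v1b1: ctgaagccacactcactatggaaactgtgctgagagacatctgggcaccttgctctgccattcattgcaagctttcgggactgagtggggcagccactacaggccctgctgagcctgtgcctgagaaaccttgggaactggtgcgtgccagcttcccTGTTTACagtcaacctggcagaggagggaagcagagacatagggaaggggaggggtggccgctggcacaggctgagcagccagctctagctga

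Depth, taken as the whole fragments behind the FPKM values, was 23970595 to 41637801 per library on normal salt and 15338237 to 27641227 on high salt. Per1 mRNA did not separate the labels: its libraries overlapped in each of the 4 pairs of groups, with means of 17.3 ± 5.08 (SS) and 15.5 ± 4.51 FPKM (SSPer1-/-) on normal salt at 2pm and 12.4 ± 4.60 and 14.96 ± 4.56 FPKM on high salt at 2pm (SD). The part of the gene that is altered is not given, so this does not test the allele, and differences are therefore called label differences below (SSPer1-/- minus SS). Proximal tubule markers, the bulk of cortex, summed to 1640 to 5970 FPKM per library. Of 5 inner medullary markers listed, Slc14a2, Upk1b and Upk3a had medians under 0.1 FPKM. The other 2, Akr1b1 and S100a4, were expressed, and the list summed to 17.2 to 58.0 FPKM per library. Both were higher in SSPer1-/- libraries on high salt at 2pm, as given below. Some libraries stood apart. Of the SS libraries at 2pm, replicate 5 on normal salt and replicates 4 and 5 on high salt had the highest thick ascending limb sums (3210, 2790 and 2300 FPKM), and replicate 2 on normal salt had the highest intercalated marker sum (374 FPKM). The SS normal salt 2pm libraries also carry another library prefix than all others. On that diet the 2pm label comparison, the SS comparison of times and the dependence of label on time cannot be told apart from it. The same holds for the dependence of label on diet at 2pm, of time on diet in SS rats, and for SS diet levels at 2pm. On high salt at 2pm each label has an earlier and a later series of library numbers: SS replicates 1 and 2 and SSPer1-/- replicates 1 to 3 are the earlier one.

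Members differed widely in level. Over all 43 libraries the highest median belonged to Atp6v0c, the proteolipid that forms most of the rotating V0 ring, at 563 FPKM, and the lowest among tested members to Tcirg1, at 6.19 FPKM. Ubiquitous V1 subunits had medians of 52.2 to 184 FPKM, and the highest library exceeded the lowest by 1.7 to 3.88-fold. Ubiquitous V0 subunits, with Tcirg1 counted among them here and below, spread by 1.33 to 2.95-fold, the steadiest being Atp6ap1 at 69.5 to 92.2 FPKM. The intercalated pump isoforms spread by 1.93 to 5.32-fold and the other intercalated members by 3.32 to 9.86-fold, the largest being pendrin, from 5.09 FPKM in SS replicate 5 on normal salt at 2pm to 50.2 FPKM in replicate 2 of the same group. Slc4a4 varied most of all tested members, by 48.9-fold.

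Group means below are given in the order normal salt 2pm, normal salt 2am, high salt 2pm and high salt 2am, in FPKM with the SD over the libraries of each group. Atp6v1b1, the B1 subunit that binds nucleotide in the intercalated pump, averaged 51.1 ± 22.6, 45.2 ± 6.22, 41.5 ± 7.33 and 35.2 ± 5.32 in SS rats and 46.1 ± 6.29, 42.8 ± 3.55, 38.5 ± 10.4 and 28.6 ± 3.35 in SSPer1-/- rats. Atp6v1c2, a stalk subunit, averaged 16.6 ± 8.52, 13.2 ± 2.13, 11.4 ± 3.31 and 10.96 ± 1.43 in SS and 13.8 ± 1.79, 13.5 ± 1.77, 13.7 ± 2.93 and 9.41 ± 0.694 in SSPer1-/- rats. Both were lowest in SSPer1-/- rats on high salt at 2am. In whole cortex, here and below, fewer cells of a type and less RNA per cell cannot be told apart. Another stalk subunit, Atp6v1g3, averaged 40.1 ± 19.4, 35.4 ± 5.38, 37.1 ± 7.07 and 31.9 ± 3.55 in SS and 38.8 ± 4.54, 33.9 ± 2.16, 46.8 ± 9.49 and 27.1 ± 2.49 in SSPer1-/- rats. In V0, Atp6v0d2, which links the ring to the rotor, averaged 28.8 ± 11.02, 25.4 ± 3.83, 30.7 ± 3.54 and 25.5 ± 5.25 in SS and 26.8 ± 2.70, 24.2 ± 0.632, 29.4 ± 7.59 and 23.4 ± 2.04 in SSPer1-/- rats. The large SDs of SS rats on normal salt at 2pm came from replicate 2, the highest library of that group for these 4 genes, and replicate 5, the lowest. Atp6v0a4, the a4 subunit that lines the proton path and that the proximal tubule also makes, was far more abundant at 173 ± 21.6, 189 ± 11.02, 164 ± 31.4 and 178 ± 18.6 in SS and 178 ± 19.9, 148 ± 9.35, 132 ± 16.5 and 144 ± 8.44 in SSPer1-/- rats. Its reads may include those of Tmem213, an intercalated cell gene that overlaps it on the other strand (median 64.5 FPKM), because the labels do not say whether these libraries keep strand.

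**Figure D1:**
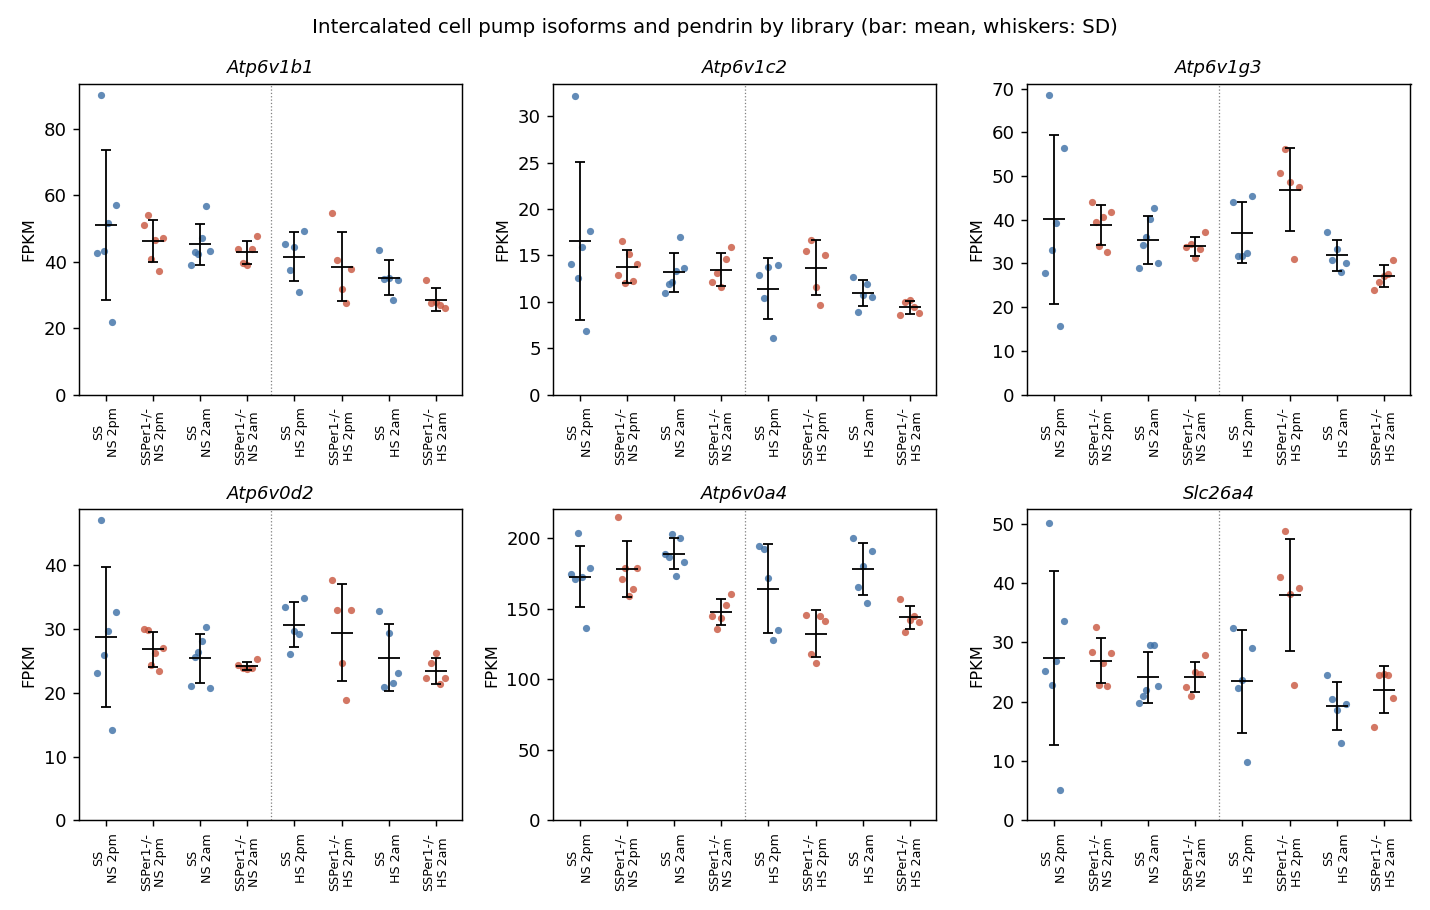
FPKM of 5 intercalated cell pump isoforms and of pendrin (Slc26a4) in each library (points; blue SS, red SSPer1-/-), with the group mean (bar) and SD (whiskers); NS is normal salt, HS is high salt, and the dotted line divides the 2 separately deposited tables. SS libraries on normal salt at 2pm have the largest SD in every panel but that of Atp6v0a4, where SS libraries on high salt at 2pm have it. The labels overlap in every panel at 2pm on normal salt.

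Among the other intercalated members, Slc4a1, the chloride and bicarbonate exchanger of type A cells, averaged 37.0 ± 15.04, 44.3 ± 8.34, 27.2 ± 5.22 and 31.1 ± 8.27 FPKM in SS and 32.1 ± 4.63, 41.3 ± 4.64, 25.1 ± 4.41 and 21.5 ± 6.35 FPKM in SSPer1-/- rats. Red cells make the same exchanger. Haemoglobin Hbb had group medians of 8.73 to 36.9 FPKM, highest in the group in which Slc4a1 was lowest (SSPer1-/- on high salt at 2am). Slc26a4 averaged 27.3 ± 14.7, 24.1 ± 4.35, 23.5 ± 8.68 and 19.3 ± 4.10 FPKM in SS and 26.9 ± 3.77, 24.2 ± 2.58, 37.99 ± 9.44 and 22.0 ± 3.93 FPKM in SSPer1-/- rats. Slc4a9, the basolateral carrier of type B cells, averaged 24.5 ± 13.9, 19.7 ± 4.16, 15.5 ± 5.86 and 16.6 ± 2.42 FPKM in SS and 21.3 ± 3.84, 21.5 ± 2.09, 21.2 ± 4.23 and 15.7 ± 1.80 FPKM in SSPer1-/- rats. Foxi1, without which mice form no mature intercalated cells, averaged 14.7 ± 5.77, 16.5 ± 3.55, 16.4 ± 4.86 and 14.4 ± 2.46 FPKM in SS and 19.1 ± 2.34, 15.5 ± 0.651, 21.1 ± 4.48 and 12.8 ± 0.9 FPKM in SSPer1-/- rats. The apical and basolateral ammonia channel Rhcg averaged 69.4 ± 30.1, 69.8 ± 11.6, 59.2 ± 7.46 and 61.2 ± 5.55 FPKM in SS and 58.2 ± 9.05, 65.3 ± 4.45, 60.2 ± 11.8 and 47.4 ± 6.07 FPKM in SSPer1-/- rats. Its basolateral relative Rhbg averaged 45.04 ± 20.5, 37.7 ± 6.15, 28.3 ± 4.38 and 24.9 ± 2.10 FPKM in SS and 37.7 ± 3.88, 33.4 ± 2.98, 25.7 ± 6.56 and 18.8 ± 3.10 FPKM in SSPer1-/- rats. Both channels had their lowest group mean in SSPer1-/- rats on high salt at 2am.

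Where an intercalated isoform has a ubiquitous partner, its share of the pair's summed FPKM, which is per length, was modest. In SS rats on normal salt at 2pm the mean share was 21.2% ± 8.53 (SD, n = 6) for B1 against B2, 17.7% ± 7.32 for C2 against C1, 18.8% ± 7.04 for G3 against G1 and 11.4% ± 3.92 for d2 against d1. For these 4 pairs the libraries of the labels overlapped in all 4 comparisons. The a subunits were the reverse, with a4 making up mean shares of 81.1% to 87.8% of the 4 a isoforms. At 2pm on high salt the a4 share was 86.4% ± 1.95 in SS and 81.1% ± 2.59 in SSPer1-/- rats (SD, n = 5 each), and the libraries did not overlap. They did not overlap on high salt at 2am (86.4% ± 1.85 and 83.1% ± 0.974) or on normal salt at 2am (87.8% ± 1.22 and 83.7% ± 0.732) either. The share of Tcirg1 went the other way in those 3 comparisons, from 2.44% ± 0.297 to 4.68% ± 0.879 on high salt at 2pm, again without overlap. The 4 shares add up to the whole, so a lower a4 share by itself raises the sum of the others. Mean shares of Atp6v0a1 and Atp6v0a2 were higher in the same 3 comparisons too. On high salt at 2pm they went from 7.45% to 9.69% and from 3.76% to 4.51%, with overlap. At 2pm on normal salt the shares of all 4 overlapped. No test was run on shares.

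**Figure D2:**
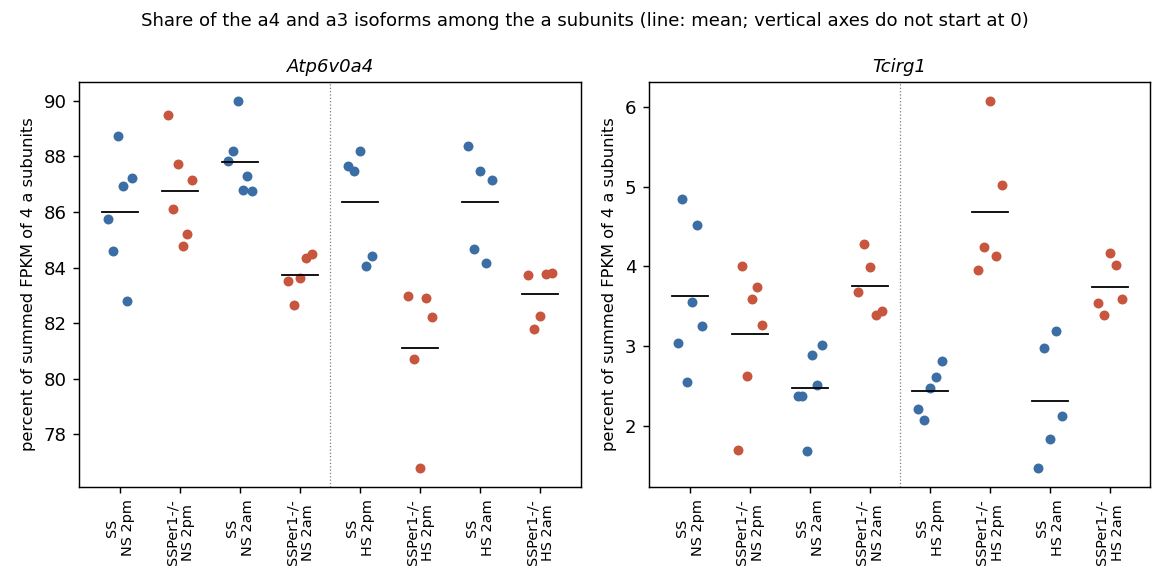
Percent of the summed FPKM of the 4 a subunits (Atp6v0a1, Atp6v0a2, Tcirg1, Atp6v0a4) due to a4 (left) and to a3, Tcirg1 (right), in each library (points; blue SS, red SSPer1-/-) with the group mean (line); vertical axes do not start at 0. The labels separate in 3 of the 4 pairs of groups, with a4 lower and Tcirg1 higher in SSPer1-/- libraries, and overlap on normal salt at 2pm. Shares of Atp6v0a1 and Atp6v0a2, not drawn, also had higher means in SSPer1-/- libraries in those 3 pairs.

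On high salt at 2pm 6 ubiquitous pump subunits and Car2 were lower in SSPer1-/- than in SS kidneys, whereas Tcirg1 and pendrin were higher. Of the 32 tested members 9 passed (28.1%; limma, adjusted p under 0.05), 7 lower and 2 higher. Over all genes tested 29.8% passed in this comparison, 15.7% lower and 14.2% higher, so the members' share is near the background and is no result about them as a group. By role, 1 of the 17 subunits counted as ubiquitous was higher and 6 were lower, with a median log2 label difference of -0.24 against 0.003 over all genes. The 1 higher was Tcirg1, which is counted there although its a3 isoform is that of phagocyte lysosomes and osteoclasts. Of the 11 intercalated members 1 was higher and none lower, with a median of 0.01. FPKM library sizes were 0.882 to 0.972 times the recovered fragments in SS and 1.023 to 1.158 times in SSPer1-/- libraries. Rescaling by median ratios kept all 9 calls. It also left 4445 genes called, as before, and the medians above unchanged. It could therefore hardly move a call and does not test this difference in scaling.

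Atp6v0d1, the d1 subunit through which V0 couples to the rotor in most cells, had the smallest adjusted p of all members. Its SS libraries stood at 221, 237, 227, 240 and 233.6 FPKM and its SSPer1-/- libraries at 156, 141, 125, 157 and 148 FPKM. All 5 SSPer1-/- libraries lay below all 5 SS libraries. The log2 label difference, taken as all fitted differences on log2(FPKM + 1), was -0.67 ± 0.07 (SE; limma adjusted p = 2.32e-05). Its promoter is the first of the pair printed above. In V1, the regulatory subunit Atp6v1h stood at 58.2, 66.1, 57.3, 62.6 and 53.0 FPKM in SS and at 47.2, 43.8, 39.9, 44.01 and 47.5 FPKM in SSPer1-/- libraries, again without overlap. The difference was -0.41 ± 0.07 (SE; limma adjusted p = 0.000578). The stalk subunits Atp6v1c1 and Atp6v1e1 differed by -0.36 ± 0.10 (SE; limma adjusted p = 0.00923) and -0.32 ± 0.09 (SE; limma adjusted p = 0.0139). The rotor subunit Atp6v1d differed by -0.26 ± 0.08 (SE; limma adjusted p = 0.0237), and the small V0 subunit Atp6v0e2 by -0.45 ± 0.13 (SE; limma adjusted p = 0.0134). The libraries of these 4 overlapped. Without SS replicates 4 and 5, the 2 libraries rich in thick ascending limb markers, 10 ubiquitous subunits were lower and 1 higher. The earlier library series alone gave 9 and 1, and the later series alone 1 and 1. Of all genes, 33.7%, 31.8% and 10.4% passed in these fits, in that order, so the counts fell with the background in the later series. Atp6v0d1 differed by -0.70 in the earlier and -0.61 in the later series, and Atp6v1h by -0.50 and -0.33, the last not passing. Atp6v1c1, by contrast, differed by -0.66 and -0.11, Atp6v0e2 by -0.74 and -0.14, Atp6v1e1 by -0.50 and -0.19, and Atp6v1d by -0.39 and -0.15, with passes in the earlier series alone. A fit of these 2 groups alone called 4 members (12.5%), Atp6v0d1, Atp6v1h, Tcirg1 and Car2, with 19% of all genes passing.

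Tcirg1 encodes a3, the isoform of lysosomes in phagocytes and of the osteoclast membrane. It was at 4.89, 4.58, 4.81, 3.98 and 4.49 FPKM in SS and at 6.95, 6.20, 8.83, 7.23 and 8.64 FPKM in SSPer1-/- libraries. Every SSPer1-/- library lay above every SS library, and the difference was 0.62 ± 0.12 (SE; limma adjusted p = 0.00123). Macrophage markers moved with it: all 7 tested were higher (median log2 difference 0.78), with 29.8% of all genes passing in either direction. Their sum was 105 to 127 FPKM in SS and 167 to 284.3 FPKM in SSPer1-/- libraries. Of the 8 markers only Cd163 had a median under 0.1 FPKM. Of 5 osteoclast genes listed, 3 were tested and 1 was higher, the protease Ctsk, by 0.66 ± 0.11 (SE; limma adjusted p = 0.000309), with means of 9.64 FPKM in SS and 15.74 FPKM in SSPer1-/- libraries. Acp5 had means of 42.9 and 35.7 FPKM and did not pass. Dcstamp and Ocstamp had medians under 0.1 FPKM, Dcstamp being listed at 0 in every library. The part of macrophage or osteoclast-type RNA in the Tcirg1 difference was not tested. Within the earlier and the later library series Tcirg1 differed by 0.53 and 0.72, passing in both.

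Car2, the cytosolic carbonic anhydrase of proximal tubule and intercalated cells, stood at 330, 337, 379, 486 and 361 FPKM in SS and 245.5, 266, 246.4, 270 and 244 FPKM in SSPer1-/- libraries on high salt at 2pm. The groups did not overlap, and the difference was -0.56 ± 0.09 (SE; limma adjusted p = 0.000335). Proximal tubule markers had lower sums there, 4230 to 5360 FPKM in SS and 1640 to 2930 FPKM in SSPer1-/- libraries. Of these 10 genes 3 passed, all lower, near the 29.8% of all genes that passed, with 7 negative and 3 positive estimates. Thick ascending limb markers summed to 969 to 2790 and 552 to 1280 FPKM, with 2 of 5 lower. Principal cell markers were lower in 2 of 7, also near that share, with 5 negative and 2 positive estimates. Both tested inner medullary markers were higher (sums 17.7 to 58.0 and 32.5 to 45.1 FPKM). The part of these cell types in the differences was not tested. The membrane-bound anhydrases Car4 and Car12 did not pass, at 0.03 ± 0.29 (SE; limma adjusted p = 0.95) and -0.20 ± 0.20 (SE; limma adjusted p = 0.493). Both turned with the library series: Car4 differed by -0.99 in the earlier series (limma adjusted p = 0.00429) and by 0.78 in the later one (limma adjusted p = 0.0436), and Car12 by -0.81 and 0.32. Car2 differed by -0.40 and -0.66, passing in both. Car2, Atp6v0d1 and Tcirg1 kept their calls when any 1 library was left out and under all 10 other settings tried.

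Pendrin was the intercalated member that passed on high salt at 2pm. Its SS libraries stood at 32.5, 22.3, 23.7, 9.78 and 29.1 FPKM and its SSPer1-/- libraries at 41.1, 48.7, 38.2, 22.8 and 39.2 FPKM. The groups overlapped through SSPer1-/- replicate 4, the lowest of its group, and the lowest value of all was SS replicate 4, a library rich in thick ascending limb markers. The log2 difference was 0.73 ± 0.25 (SE; limma adjusted p = 0.0364). It no longer passed in 6 of the 10 fits without 1 library, with log2 differences of 0.46 to 0.90, nor without SS replicates 4 and 5 together, nor with library series as a covariate, and within the series it differed by 0.64 and 0.63 without passing. The remaining type B gene Slc4a9 and the factor Foxi1 did not pass, at 0.49 ± 0.21 (SE; limma adjusted p = 0.0808) and 0.36 ± 0.16 (SE; limma adjusted p = 0.0953), although Foxi1 passed without SS replicate 5 or SSPer1-/- replicate 4 and Slc4a9 without SS replicate 1 or 3 or SSPer1-/- replicate 4. The Slc4a9 difference was 0.26 without SS replicate 4 and 0.16 without SS replicates 4 and 5 together. Of 11 further tested intercalated cell markers that are no members, 2 were higher and 0 lower (Kit and Insrr; 18.2%, below the 29.8% of all genes). Summed levels of these markers overlapped, at 190 to 240 FPKM in SS and 170 to 245.6 FPKM in SSPer1-/- libraries.

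**Figure D3:**
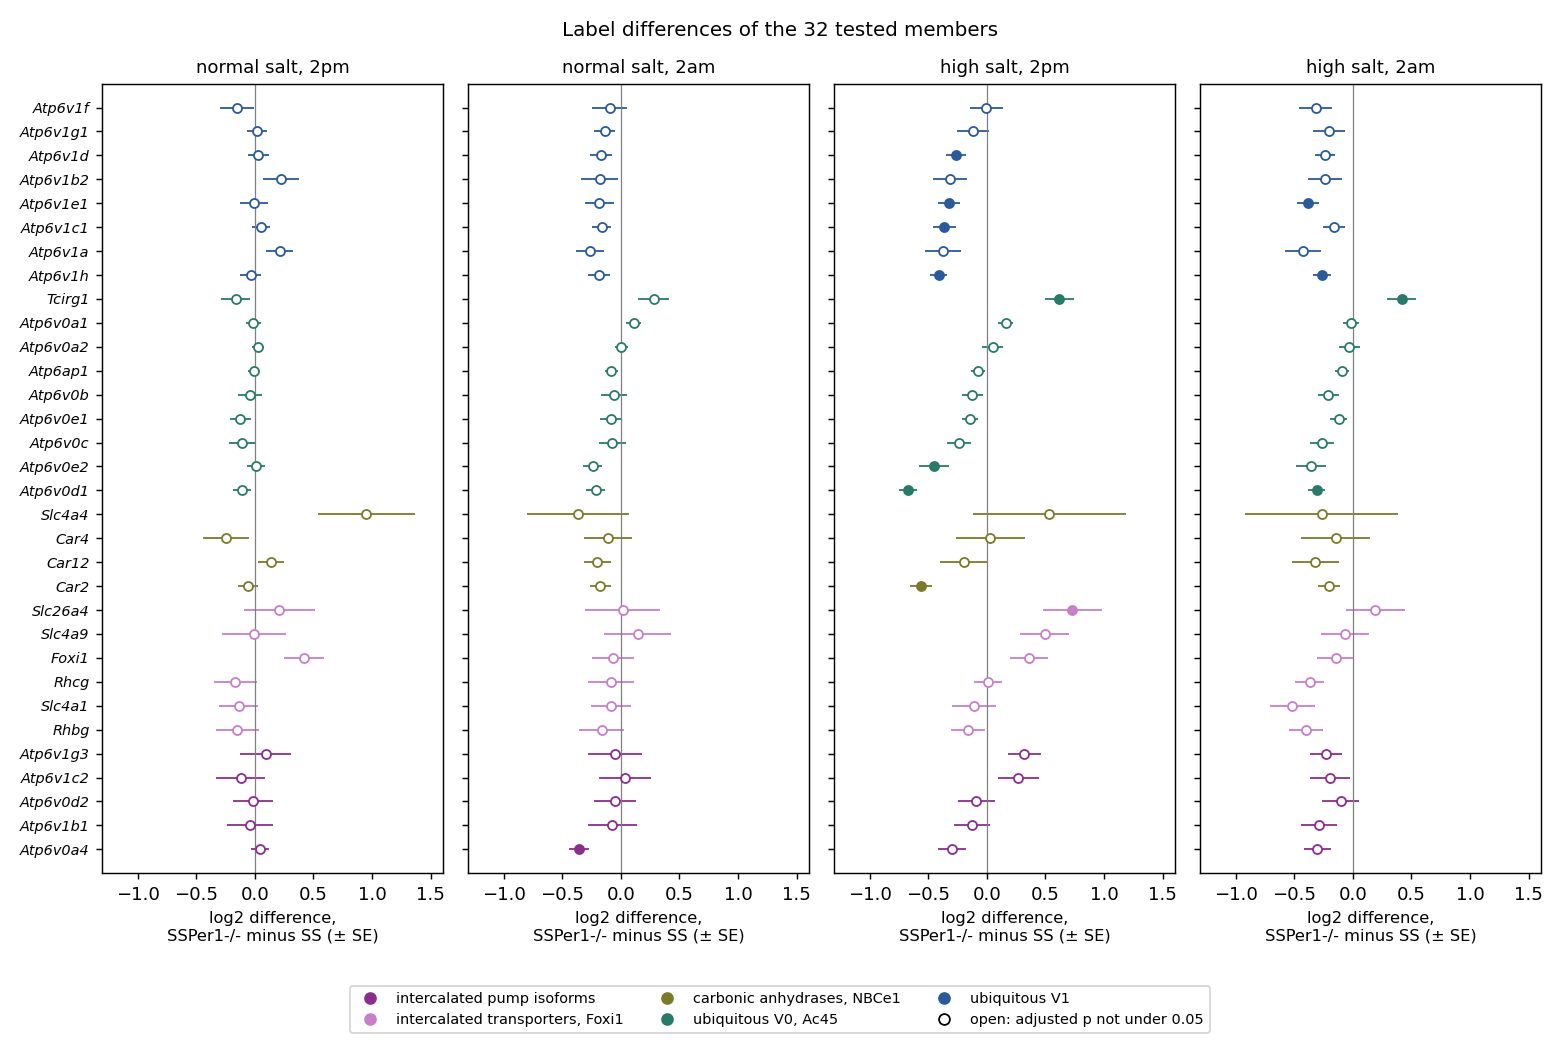
Log2 label difference (SSPer1-/- minus SS, on log2(FPKM + 1)) of the 32 tested members in the 4 pairs of groups, with its SE (whiskers); filled points passed at an adjusted p under 0.05, open points did not, and colours give the role. On high salt 7 of the 17 subunits counted as ubiquitous pass at 2pm (6 lower, 1 higher) and 4 at 2am (3 lower, 1 higher). The 1 higher is Tcirg1 at both times. On normal salt 0 pass at either time. Of all genes, 29.8% and 8.95% pass on high salt at 2pm and 2am, and 0.372% and 4.18% on normal salt.

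At 2am on high salt 4 members passed (12.5%), with 8.95% of all genes passing, a share again not far from the background. The difference of Atp6v1e1 was -0.38 ± 0.09 (SE; limma adjusted p = 0.0161), that of Atp6v0d1 -0.31 ± 0.07 (SE; limma adjusted p = 0.0151) and that of Atp6v1h -0.26 ± 0.07 (SE; limma adjusted p = 0.0307). The libraries of all 3 did not overlap between the labels. Atp6v0d1 stood at 210, 178, 189, 185 and 211 FPKM in SS and 172, 157, 147, 145 and 165 FPKM in SSPer1-/- libraries. Tcirg1 was higher, by 0.42 ± 0.12 (SE; limma adjusted p = 0.0394), beside 5 of 7 macrophage markers (summed levels 77.2 to 162 and 173 to 219 FPKM). The calls of Tcirg1 and Atp6v1h were each lost in 7 of the 10 fits without 1 library and with the replicate block, and that of Tcirg1 also with no filter and in the fit of these 2 groups alone. The calls of Atp6v0d1 and Atp6v1e1 were lost in 3 and 2 of the 10 fits. Point estimates were negative for 16 of the 17 ubiquitous and 10 of the 11 intercalated members, with medians of -0.23 and -0.23 against -0.007 over all genes. Of the 11 intercalated members limma called 0 (4 at an unadjusted p under 0.05; voom 0). The nearest were Rhcg, Rhbg and Slc4a1, at -0.37 ± 0.12 (SE; limma adjusted p = 0.0686), -0.40 ± 0.14 (SE; limma adjusted p = 0.0921) and -0.52 ± 0.19 (SE; limma adjusted p = 0.0955), and all 3 passed without SSPer1-/- replicate 1. Of the further intercalated markers 2 of 11 were lower, Tmem213 and Bsnd. Proximal tubule markers were also negative in 10 of 10 (median -0.46; sums 4110 to 5620 and 3080 to 4220 FPKM), and their part was not tested. Without 1 library the count of members ran from 0 (without SS replicate 1) to 6, and it moved by more than 1.5 times without SS replicate 1, 3 or 5 or SSPer1-/- replicate 3, 4 or 5. Fitting these 2 groups alone gave 10 (31.2%), with 17.1% of all genes passing.

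**Figure D4:**
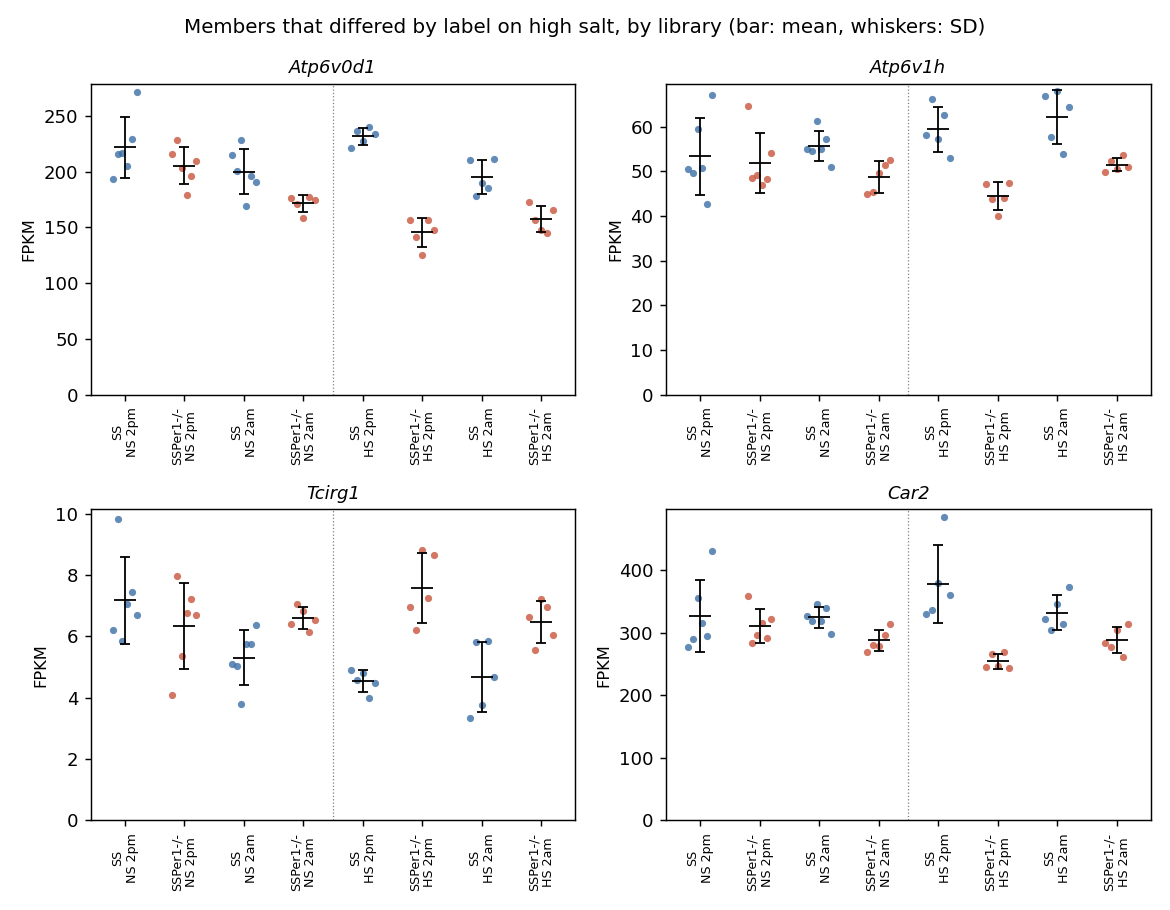
FPKM of Atp6v0d1, Atp6v1h, Tcirg1 and Car2 in each library (points; blue SS, red SSPer1-/-) with the group mean (bar) and SD (whiskers); the dotted line divides the 2 tables. On high salt at 2pm the labels do not overlap for any of the 4, and on normal salt at 2pm they overlap for all 4.

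On normal salt the labels differed in 1 member. At 2pm 0 of 32 passed (limma; 2 at an unadjusted p under 0.05, Foxi1 and Slc4a4; voom 0), with 0.372% of all genes passing. At 2am 1 of 32 passed, with 4.18% of all genes passing. This was Atp6v0a4, whose SS libraries had a lowest of 173, a median of 188 and a highest of 203 FPKM, and whose SSPer1-/- libraries stood at 145, 136, 143, 153 and 160 FPKM. All SSPer1-/- libraries lay below all SS libraries. The log2 difference was -0.36 ± 0.08 (SE; limma adjusted p = 0.0213), and the call was lost without SS replicate 3 or 5 or without SSPer1-/- replicate 2 or 3, at -0.33 to -0.39 over all fits without 1 library. The overlapping Tmem213 averaged 67.8 ± 7.54 FPKM in SS and 67.6 ± 7.61 FPKM in SSPer1-/- libraries there. Proximal tubule markers had negative estimates there in 10 of 10 (0 passing with limma; median -0.35; sums 4510 to 5970 and 3920 to 4550 FPKM), and their part was not tested. All 8 ubiquitous V1 subunits also had negative estimates (median -0.18) without passing. Macrophage markers were higher, 5 of 7 passing with a median of 0.63 (sums 109 to 154 and 181 to 227 FPKM), and Tcirg1 stood at 0.28 ± 0.13 (SE; limma adjusted p = 0.237). Fitting these 2 groups alone gave 6 members in place of 1 (18.8%, near the 18.3% of all genes that passed in that fit).

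The label difference at 2pm depended on diet for 7 of 32 members (21.9%) in a test of the interaction over all 43 libraries, in which 22% of all genes passed. The SS normal salt 2pm libraries in this test carry their own prefix, from which the interaction cannot be told apart. Negative interactions mean that SSPer1-/- kidneys lay lower against SS on high salt than on normal salt. The interactions were -0.56 ± 0.11 (SE; limma adjusted p = 0.000571) for Atp6v0d1, -0.50 ± 0.13 (SE; limma adjusted p = 0.00498) for Car2 and -0.41 ± 0.12 (SE; limma adjusted p = 0.014) for Atp6v1c1. Those of Atp6v0e2, Atp6v1h and Atp6v1a, the catalytic subunit, were -0.46 ± 0.15, -0.38 ± 0.12 and -0.59 ± 0.19, with limma adjusted p of 0.0216, 0.021 and 0.0253. Tcirg1 went the other way, by 0.78 ± 0.18 (SE; limma adjusted p = 0.00238). Of the 11 intercalated members limma called 0 (1 at an unadjusted p under 0.05; voom 0). Without SS replicate 4 on high salt 11 members passed. Without SS replicates 2 and 5 on normal salt 3 members (9.38%) remained, Car2, Atp6v0d1 and Tcirg1, with 17% of all genes passing. At 2am the interaction passed for 0 members (limma; 0 at an unadjusted p under 0.05; voom 0) and for 0% of all genes.

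Group means of the ubiquitous members that passed are given in the same order. Atp6v0d1 averaged 222 ± 27.2, 200 ± 20.4, 232 ± 7.51 and 195 ± 15.1 FPKM in SS and 205 ± 16.7, 172 ± 7.81, 146 ± 13.0 and 157 ± 11.6 FPKM in SSPer1-/- rats. Atp6v1h averaged 53.4 ± 8.62, 55.7 ± 3.38, 59.4 ± 5.06 and 62.1 ± 6.08 FPKM in SS and 51.9 ± 6.71, 48.7 ± 3.52, 44.5 ± 3.08 and 51.4 ± 1.47 FPKM in SSPer1-/- rats. Both were thus lowest in SSPer1-/- rats on high salt at 2pm. The means of Atp6v1c1 were 74.1 ± 11.4, 76.5 ± 3.81, 79.0 ± 12.7 and 78.8 ± 8.10 FPKM in SS and 76.3 ± 5.74, 68.2 ± 2.92, 60.7 ± 5.62 and 70.1 ± 2.87 FPKM in SSPer1-/- rats. For Atp6v1e1 they were 136 ± 35.4, 145 ± 11.2, 133 ± 19.2 and 150 ± 17.4 FPKM and 132 ± 12.8, 128 ± 7.99, 105 ± 7.62 and 114 ± 4.36 FPKM, and for Atp6v1d 86.3 ± 14.8, 91.3 ± 7.82, 85.3 ± 8.65 and 96.8 ± 10.8 FPKM and 87.5 ± 9.49, 80.9 ± 4.26, 70.7 ± 5.59 and 81.6 ± 4.24 FPKM. Their lowest group was the same one. Atp6v0e2 averaged 124 ± 15.6, 141 ± 8.82, 105 ± 21.4 and 130 ± 13.9 FPKM in SS and 125 ± 13.6, 119 ± 5.37, 76.3 ± 11.3 and 101 ± 8.08 FPKM in SSPer1-/- rats. Atp6v1a averaged 105 ± 19.7, 139 ± 9.21, 117 ± 32.9 and 148 ± 18.0 FPKM in SS and 122 ± 22.1, 115 ± 9.41, 87.6 ± 12.2 and 109 ± 7.23 FPKM in SSPer1-/- rats. Tcirg1 averaged 7.17 ± 1.41, 5.30 ± 0.891, 4.55 ± 0.358 and 4.68 ± 1.15 FPKM in SS and 6.34 ± 1.39, 6.59 ± 0.352, 7.57 ± 1.13 and 6.48 ± 0.682 FPKM in SSPer1-/- rats, with its highest group mean where the other 7 had their lowest. Car2 averaged 327 ± 57.6, 325 ± 17.2, 379 ± 62.9 and 332 ± 28.1 FPKM in SS and 312 ± 27.4, 287.9 ± 17.4, 254.4 ± 12.5 and 288.3 ± 21.1 FPKM in SSPer1-/- rats.

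Between 2pm and 2am the largest member difference that passed was in Slc4a4. In SS rats on normal salt 3 of 32 passed (9.38%), with 26.3% of all genes passing. Slc4a4, the electrogenic sodium bicarbonate carrier of the proximal tubule, had a lowest of 19.0, a median of 67.6 and a highest of 163 FPKM at 2pm and a lowest of 142, a median of 185 and a highest of 220 FPKM at 2am. The groups overlapped only through 2pm replicates 1 and 3. The log2 time difference (2am minus 2pm) was 1.49 ± 0.41 (SE; limma adjusted p = 0.0125). Atp6v1a rose by 0.41 ± 0.11 (SE; limma adjusted p = 0.0103) on this scale, and Tcirg1 differed by -0.37 ± 0.12 (SE; limma adjusted p = 0.0328). Without SS 2pm replicate 3 or 6 the count moved by more than 1.5 times, up to 5. All 3 calls were lost when SS 2pm replicates 2 and 5 were left out together. In that fit 2 other members passed, Car4 and the intercalated Slc4a1, with 20.2% of all genes passing. Beside Tcirg1, 4 of 7 macrophage markers were lower at 2am, and its call was lost in 5 of the 12 fits without 1 library. Of the 11 intercalated members limma called 0 (0 at an unadjusted p under 0.05; voom 0), with a median of -0.04.

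Slc4a4 was low in the libraries that stood apart. Its group means were 82.0 ± 58.9, 182 ± 29.5, 118 ± 103 and 261 ± 67.6 FPKM in SS and 138 ± 67.0, 142 ± 34.7, 95.0 ± 25.0 and 211 ± 20.9 FPKM in SSPer1-/- rats. On high salt at 2pm the SS libraries stood at 235, 206, 120, 6.66 and 23.4 FPKM, against 69.5, 66.5, 111, 120 and 108 FPKM in SSPer1-/- libraries. The lowest value of all 43 libraries, 6.66 FPKM, was in SS replicate 4, where thick ascending limb markers summed to 2790 FPKM and distal convoluted tubule markers to 43.9 FPKM. The next lowest, 19.0 FPKM, was in SS replicate 5 on normal salt at 2pm, with sums of 3210 and 32.9 FPKM. Proximal tubule sums overlapped between the SS groups of both times on each diet. On normal salt 3 of 10 proximal tubule markers (Cubn, Lrp2 and Slc5a12) rose from 2pm to 2am, with 26.3% of all genes passing. The part of segment content in the time difference of Slc4a4 was not tested. Slc4a4 did not pass between the labels in the 4 comparisons. On high salt at 2pm the estimate was 0.53 ± 0.65 (SE; limma adjusted p = 0.577), and without SS replicates 4 and 5 it was -0.96 (limma adjusted p = 0.00781). It was -1.45 in the earlier library series and 2.02 in the later one.

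**Figure D5:**
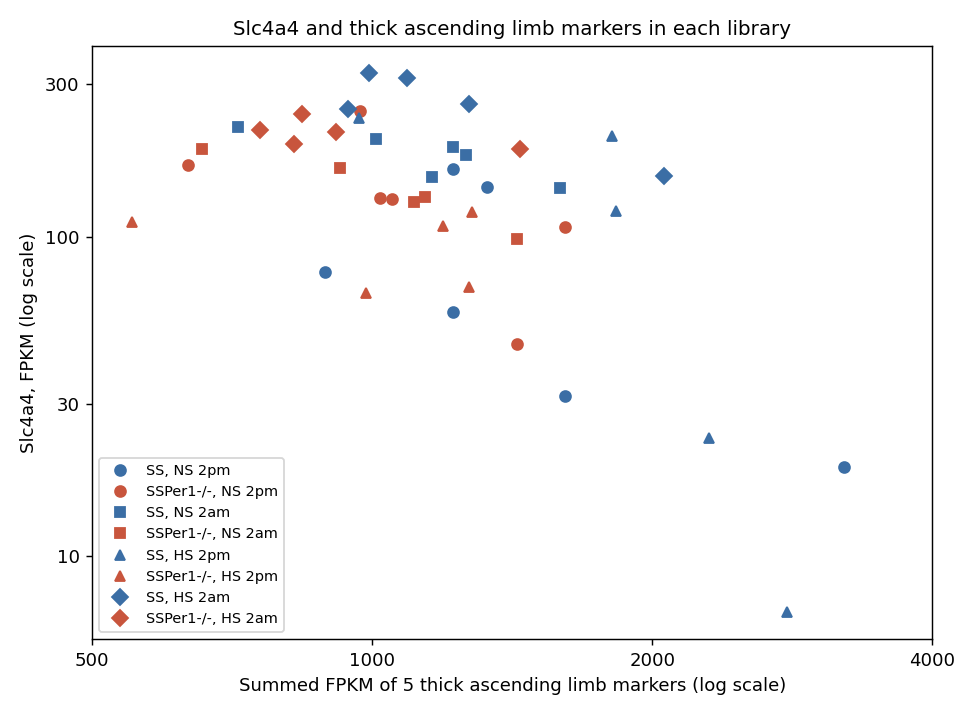
Slc4a4 FPKM against the summed FPKM of 5 thick ascending limb markers in each of the 43 libraries, both on log scales (blue SS, red SSPer1-/-; shapes give diet and time). The 3 libraries with the highest marker sums, all SS at 2pm, hold the 3 lowest Slc4a4 values (6.66, 19.0 and 23.4 FPKM).

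In SSPer1-/- rats on normal salt 0 members passed between the times (limma; 3 at an unadjusted p under 0.05; voom 0), with 3.11% of all genes passing. In SS rats on high salt 1 passed, Atp6v0d1, with 5.44% of all genes passing. It was lower at 2am by -0.25 ± 0.07 (SE; limma adjusted p = 0.0494), without overlap of the libraries, but the call was lost in 9 of the 10 fits without 1 library and with voom. In SSPer1-/- rats on high salt 1 passed, with 0.262% of all genes passing. This was Atp6v1g3, at 50.8, 56.2, 48.6, 30.9 and 47.6 FPKM at 2pm and 24.0, 25.8, 27.1, 27.7 and 30.7 FPKM at 2am. Every 2am library lay below every 2pm library, and the difference was -0.75 ± 0.14 (SE; limma adjusted p = 0.0326). The call was lost in 9 of the 10 fits without 1 library. Of the 11 intercalated members 10 had negative time estimates there (median -0.39). So did all 11 further intercalated markers (median -0.51) and all 7 principal cell markers (median -0.55), while all 10 proximal tubule markers were positive (median 0.56). With limma 0 of these markers passed, and their part in the estimates was not tested. All 8 ubiquitous V1 subunits had positive estimates (median 0.19), none passing. Foxi1 was lower in every 2am than in every 2pm SSPer1-/- library on both diets, at -0.28 ± 0.18 (SE; limma adjusted p = 0.447) on normal salt and -0.66 ± 0.16 (SE; limma adjusted p = 0.0694) on high salt, so it did not pass. On high salt it did without 2pm replicate 4 (-0.76; limma adjusted p = 0.0235).

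For the dependence of time on label no member passed on normal salt (limma 0; 6 at an unadjusted p under 0.05; voom 0; 2.81% of all genes) or on high salt (limma 0; 5 at an unadjusted p under 0.05; voom 0; 0.101% of all genes). None passed for the dependence of time on diet in SS rats (limma 0; 2 at an unadjusted p under 0.05; voom 0; 0.0709% of all genes). In SSPer1-/- rats limma called 0, 9 had an unadjusted p under 0.05, voom called 1, Atp6v0d1, and 2.94% of all genes passed. The estimates of the intercalated members lay mostly on one side. For label and time on high salt 11 of 11 were negative (median -0.41, with -0.006 over all genes), and for time and diet in SSPer1-/- rats 10 of 11 were negative (median -0.42, with 0.005 over all genes). In the latter all 11 further intercalated and all 7 principal cell markers were negative too (medians -0.355 and -0.585), all 10 proximal tubule markers were positive (median 0.645), and their part was not tested.

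The diets were deposited as separate tables, so diet and table cannot be told apart and levels are compared between diets only by whether their libraries overlap. In SSPer1-/- rats at 2pm, 11 of 32 members (34.4%) had all high salt libraries below all normal salt libraries and 0 had them above, with 22.4% of all genes not overlapping in either direction. These 11 were 8 ubiquitous subunits, Atp6v0a4, Car2 and Car12. At 2am there were 12 of 32 below (37.5%) and 0 above, with 20.2% of all genes not overlapping. Here 8 of the 12 were intercalated members, namely Atp6v1b1, Atp6v1c2, Atp6v1g3, Slc4a1, Slc4a9, Foxi1, Rhcg and Rhbg. Rhbg, for example, stood at 33.3, 32.5, 29.3, 34.3 and 37.6 FPKM on normal salt and 23.0, 16.8, 20.8, 18.1 and 15.3 FPKM on high salt. The further intercalated markers summed to 178 to 210 and 129 to 164 FPKM in the same groups. In SS rats 1 member did not overlap at 2pm, Tcirg1 (3.12%; 6.4% of all genes), and 1 at 2am, Rhbg (3.12%; 5.89% of all genes), both lower on high salt.

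Other genes of acid-base handling and of pump assembly were read from lists that hold no members. Of 10 tested assembly genes 2 were lower and 0 higher by label on high salt at 2pm (20%, with 29.8% of all genes passing). These were Atp6ap2, the prorenin receptor that is also a pump accessory subunit, by -0.39 ± 0.08 (SE; limma adjusted p = 0.00133), and Dmxl2, a rabconnectin that promotes V1 to V0 assembly, by -0.40 ± 0.12 (SE; limma adjusted p = 0.0213). At 2am on high salt Dmxl2 and Rogdi were lower. Of 25 wider acid-base genes 5 were higher and 1 lower by label on high salt at 2pm (24%, below the 29.8% of all genes). Glud1, the glutamate dehydrogenase of renal ammonia formation, was lower by -0.69 ± 0.13 (SE; limma adjusted p = 0.000941), and the anion exchanger Slc4a3 was higher by 0.60 ± 0.12 (SE; limma adjusted p = 0.00128). At 2am 1 of 25 passed, the cytosolic anhydrase Car13, higher by 1.01 ± 0.21 (SE; limma adjusted p = 0.00853). On normal salt 1 of 23 passed at each time: at 2pm Atp12a, the proton potassium pump, higher by 0.76 ± 0.15 (SE; limma adjusted p = 0.0267), and at 2am Car13, higher by 0.48 ± 0.12 (SE; limma adjusted p = 0.0235). Between the times in SS rats on normal salt 6 of 23 rose and 0 fell (26.1%, near the 26.3% of all genes that passed). The apical proton exchanger Slc9a3 of the proximal tubule rose by 0.54 ± 0.14 (SE; limma adjusted p = 0.00873) and the endosomal chloride exchanger Clcn5 by 0.96 ± 0.26 (SE; limma adjusted p = 0.00998).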

How the data were processed

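Poly(A)-selected RNA of 43 rat kidney cortex libraries was sequenced on Illumina instruments, per the labels. The authors deposited FPKM (fragments per kilobase, scaled to library size) for each gene, in 1 table per diet, so diet and table cannot be told apart. The submitters' processing notes name featureCounts 1.5.0-p3, StringTie 1.3.3b, HISAT2 2.0.5 and fastp. The genome build and the use of strand in counting were not given in the sources used here. Deposited FPKM values gave whole fragments for 100% of values within 0.01 reads, 23970595 to 41637801 per library on normal salt and 15338237 to 27641227 on high salt. Every data column matched a sample by its name.

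Genes that reached 1 FPKM in 5 or more libraries were tested on log2(FPKM + 1), which understates changes of low genes, with limma 3.58.1 (R 4.3.3). Each diet table was fitted with 4 group means and a mean-variance trend. Interactions with diet used 1 fit of all 8 groups. P-values of the 14 contrasts were two-sided, with Benjamini-Hochberg adjustment over all genes tested, and 0.05 was the threshold. The steps were checked on simulated data. Replicate numbers were not used as pairs. Repeats used a pseudocount of 0.1, no filter, rescaling by median ratios, voom on the recovered fragments, the replicate number as a block, the compared groups alone, library series as a covariate, and each library left out in turn. Leaving out libraries that stood apart, and each library series alone, were chosen after seeing the data. Diets were compared by whether libraries overlapped, with no test. Of 95 pairs of libraries within groups none agreed within sampling noise (lowest chi-square per degree of freedom 9.65). The members and gene lists were chosen with earlier results of these data known. Any member could be named. Of the other lists, up to 3 genes with the smallest p per contrast were named. One item that this rule would name is not reported here. A deposited extract of selected genes, holding no members, was not used here.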

Additional observations from a re-analysis of the deposited data

Results flagged for a closer look

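Single libraries lay apart from the rest of their group, by the Dixon gap test at its 95% level, in 8 cases over the 32 tested members and 8 groups. Chance alone gives about 1 in 20. Car12 was high in SSPer1-/- replicate 1 on normal salt at 2pm (433 FPKM) and in SS replicate 5 on normal salt at 2am (411 FPKM), and low in SSPer1-/- replicate 5 on high salt at 2am (303 FPKM). Atp6v0a4 was high in the same SSPer1-/- replicate 1 on normal salt at 2pm, at 215 FPKM. Slc4a1 was high in SS replicate 2 on normal salt at 2pm, at 67.2 FPKM, the library with the highest sum of intercalated cell markers. Foxi1 was low in SSPer1-/- replicate 3 on normal salt at 2am, at 14.4 FPKM. Atp6v1b1 was high in SSPer1-/- replicate 1 on high salt at 2am (34.4 FPKM), and Atp6v1d in SSPer1-/- replicate 5 on high salt at 2pm (80.6 FPKM).

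The label difference changed with diet at 2pm for 7 members (21.9%), with 22% of all genes passing, so this is no result about members as a group. These were the only passes among the 192 member interactions tested with limma. The log2 interactions were -0.56 for Atp6v0d1, -0.50 for Car2, -0.46 for Atp6v0e2, -0.59 for Atp6v1a, -0.41 for Atp6v1c1, -0.38 for Atp6v1h and 0.78 for Tcirg1. The SS libraries on normal salt at 2pm carry their own library prefix, from which this interaction cannot be told apart.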

How the results depend on the processing

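No call of the main fits changed direction under any setting tried, and a pseudocount of 0.1 kept every count of members. Car4, which no main fit called, passed by label on high salt at 2pm as lower in the earlier library series and higher in the later one. Without an expression filter the time counts on high salt fell from 1 to 0 in both SS and SSPer1-/- rats. Voom also gave 0 for SS rats there. Voom and rescaling each gave 1 (from 0) for dependence of time on diet in SSPer1-/- rats. With rescaling, 13 and 14 members (from 11 and 12) did not overlap between diets in these rats at 2pm and 2am, and SS rats kept 1 each. The all-gene share was not taken. Fitting only the compared groups moved the most counts of members. By label it gave 6 on normal salt at 2am (from 1), 4 on high salt at 2pm (from 9) and 10 on high salt at 2am (from 4), and it gave 3 for the dependence of label on diet at 2pm (from 7). By time it gave 1 in SSPer1-/- rats on normal salt (from 0), 0 in SS rats and 5 in SSPer1-/- rats on high salt (from 1 each), and 8 for the dependence of time on diet in SSPer1-/- rats (from 0). It uses fewer libraries for the spread. Of all genes this fit called 18.3%, 19% and 17.1% in those label comparisons, in that order. For the dependence of label on diet at 2pm the share was 10.6%. By time it was 6.21%, 0.342% and 4.82%, and for time on diet in SSPer1-/- rats 11.5%.

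Libraries that stood apart mattered too. Without SS replicates 2 and 5 on normal salt at 2pm the dependence of label on diet held for 3 members, with 17% of all genes passing. Without SS replicates 4 and 5 on high salt at 2pm it held for 13, the label called 16 and time in SS rats 0. Of all genes 29.8%, 33.7% and 1.16% passed there, in that order. The earlier library series alone called 17 members by label on high salt at 2pm, with 31.8% of all genes passing. The later series alone called 4, with 10.4% of all genes passing (1499). Without 1 library the counts of members by label were 0 to 0 on normal salt at 2pm, 0 to 1 at 2am, 7 to 13 on high salt at 2pm and 0 to 6 at 2am. By time they were 2 to 5 in SS and 0 to 1 in SSPer1-/- rats on normal salt, and 0 to 5 and 0 to 2 on high salt. Dependence of label on time held for 0 to 2 on normal salt and 0 to 0 on high salt, of label on diet for 5 to 11 at 2pm and 0 to 0 at 2am, and of time on diet for 0 to 0 in SS and 0 to 2 in SSPer1-/- rats. Where 0 became 1 or 2, the library left out was SSPer1-/- 2pm replicate 4 for time on normal salt. It was SSPer1-/- 2pm replicate 2 or 4, SS 2am replicate 4 or SS 2pm replicate 3 for label and time on normal salt. For time and diet it was SSPer1-/- replicate 4 on high salt at either time or on normal salt at 2pm. The time counts on high salt moved in every such fit in SSPer1-/- rats, and in SS rats in every fit but that without 2pm replicate 2.

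Some members that did not pass by label on high salt at 2pm turned with the libraries. Car4 (0.03) ran from -0.18 to 0.33 over the fits without 1 library, below 0 without SSPer1-/- replicate 3 or 5 (-0.01 each) and without SS replicate 3, 4 or 5 (-0.03, -0.16 and -0.18). It was -0.52 without SS replicates 4 and 5 together, -0.11 with library series as a covariate and -0.99 in the earlier series. Slc4a4 (0.53) ran from -0.23 (without SS replicate 4) to 1.002 (without SS replicate 1), and was -0.96 without SS replicates 4 and 5, and -1.45 in the earlier series. Car12 was 0.32 in the later series.

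Counts over all genes also moved by more than 1.5 times. The compared groups alone gave by label 3 (from 50) and 2371 (from 561) on normal salt at 2pm and 2am, and 2641 (from 4445) and 2369 (from 1333) on high salt. By time they gave 1785 (from 3534) and 806 (from 418) on normal salt, and 47 (from 811) and 674 (from 39) on high salt, in SS and SSPer1-/- rats. For dependence on diet they gave 1445 (from 3102) for label at 2pm, and 0 (from 10) and 1560 (from 415) for time. Time in SSPer1-/- rats on high salt called 14 without a filter, 119 with voom and 5 with the block. Dependence of label on time (378 and 15) gave 181 and 8 without a filter and 657 and 8 with the block, 185 without SS replicates 2 and 5 on normal salt and 4 without SS replicates 4 and 5 on high salt. Dependence of time on diet in SS rats (10) gave 6 with voom and 5 without SS replicates 4 and 5, and in SSPer1-/- rats (415) 214 without a filter. Label on normal salt at 2pm gave 29 without SS replicates 2 and 5, time in SS rats on high salt 170 without SS replicates 4 and 5, and time in SSPer1-/- rats on normal salt 272 with the block.

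On average same-numbered libraries did not deviate together, with mean correlations of 0.019 (-0.526 to 0.612) on normal salt and 0.032 (-0.23 to 0.421) on high salt. A mean near 0 cannot exclude a pairing within some groups. The numbers were not used as pairs in the main fits. With the replicate block 12 members passed by label on high salt at 2pm and 6 at 2am, of which Atp6v0d1 and Atp6v1e1 were among the 4 called without it, Atp6v1h and Tcirg1 being lost and Atp6v0c, Atp6v1d, Rhbg and Rhcg gained. It gave 0 by time in SSPer1-/- rats on high salt, where Atp6v1g3 had passed. Where a call or count changed, the cause was not tested.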

Other observations

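Lysosomal genes outside the pump were split between the labels on high salt at 2pm, where 2 of 16 tested were higher and 1 was lower (18.8%, below the 29.8% of all genes). Mcoln1, a cation channel of the lysosomal membrane, differed by -0.66 ± 0.09 (SE; limma adjusted p = 4.9e-05), and its label difference depended on diet by -0.65 ± 0.11 (SE; limma adjusted p = 0.000272). The protease Ctsd was higher by 0.76 ± 0.21 (SE; limma adjusted p = 0.0103) and the transcription factor Mitf by 0.29 ± 0.10 (SE; limma adjusted p = 0.0348). All 7 tested macrophage markers were higher in the same comparison.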
